A study of Homo sapiens with 9 samples.

Results

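Long intergenic noncoding RNAs (lincRNAs) are transcripts from genes that lie between protein-coding genes and are annotated as encoding no protein. Most are spliced and polyadenylated like messenger RNAs. A few are abundant and well studied, such as MALAT1 and NEAT1 of the nuclear speckles and paraspeckles, while others are known mainly because small RNAs are cut from their introns or exons. The lincRNAs described here were selected on their level in these libraries. They were genes annotated as lincRNA, at least 200 bases long, with a mean of at least 1 over 9 libraries in FPKM. FPKM is a level scaled for the length of a gene and, by a factor per library, for sequencing depth. The selection kept 307 genes of 58735 in the table and of 7629 lincRNA genes, 3754 of which had a read in at least 1 library.

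The libraries came from HCT116, a human colorectal carcinoma cell line, with 3 labelled A20-WT (WT), 3 labelled A20-KO and 3 labelled A20-OE. The last were taken here to be the knockout cells that received A20 again, which the study names A20-KO-rescue (RE). A20, encoded by TNFAIP3, is a ubiquitin-editing enzyme known for restraining NF-kB signalling. Per the methods of the study, guide RNAs against A20 were delivered in a LentiCRISPR v2 lentiviral vector and the A20 expression plasmid was pCMV-3xFlag-A20; whether a line was 1 clone is not given in the sources used here. The methods describe puromycin selection after lentiviral delivery. The labels do not say whether the 3 libraries of a group came from separate cultures, so p-values measure the spread between libraries, which may be technical.

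TNFAIP3 itself was read first. Its FPKM was 0.869, 0.800 and 0.736 in WT, 1.93, 2.16 and 1.04 in the A20-KO-labelled libraries, and 58.7, 66.5 and 56.5 in A20-OE. TNFAIP3 mRNA was thus 0.95 above WT under the knockout label on the log2 scale (SE 0.23, limma adjusted p = 0.018). This is under the fold threshold of 1, and past it with a pseudocount of 0.01, by limma-voom on recovered reads and without A20-KO replicate 3. A frameshift need not lower the mRNA, so these values cannot check the label. Each direction drawn from that label carries this limit. A20-OE stood 6.07 above WT on the log2 scale. The total of reads recovered per library lay between 23406222 and 24963691. Of 12 markers of colorectal epithelium, 9 had an FPKM of at least 1 in every library, while VIL1 and CDX1, markers of differentiated intestinal cells, were at or near 0 in all 9. Of 13 markers of blood, stromal and endothelial cells, COL1A1 alone reached an FPKM of 1 in every library, and the summed FPKM of that list was 5.21 to 6.40 in WT, 13.0 to 15.6 in the A20-KO-labelled libraries and 11.4 to 12.7 in A20-OE; the part of these genes in the results below was not tested.

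The sequences that several of these lincRNAs carry show why they are known. MIR210HG, MIR222HG, MIR22HG and MIR200CHG each contain microRNAs on the same strand, and the mature sequences below, from RefSeq on GRCh38.p14, are shown 5′ to 3′ because the results on these host genes follow. Capitals mark the seed, bases 2 to 8, which pairs with target messages.
miR-210-3p, in MIR210HG (11:568112-568133, minus strand): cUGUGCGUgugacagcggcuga
miR-221-3p, in MIR222HG (X:45746180-45746202, minus strand): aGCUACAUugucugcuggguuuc
miR-222-3p, in MIR222HG (X:45747036-45747056, minus strand): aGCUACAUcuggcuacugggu
miR-22-3p, in MIR22HG (17:1713914-1713935, minus strand): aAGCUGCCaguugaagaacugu
miR-200c-3p, in MIR200CHG (12:6963742-6963764, plus strand): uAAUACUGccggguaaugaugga
miR-141-3p, in MIR200CHG (12:6964155-6964176, plus strand): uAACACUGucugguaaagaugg
The miR-221-3p and miR-222-3p sequences share the seed GCUACAU. Those of miR-200c-3p and miR-141-3p are AAUACUG and AACACUG. The libraries measured the long host transcripts, not the mature microRNAs.

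The members were mostly low in level. The median of their mean FPKM was 1.84, 166 lay between 1 and 2, and 15 reached 10. The 10 with the highest mean FPKM made up 34.3% of the members' summed FPKM, and the 5 with the most reads took 48.1% of the members' reads. The length of the members ranged from 246 to 22767 bases, with a median of 989. By GENCODE 29 on GRCh38, the annotation that the deposited identifiers and coordinates match, 92 members had 1 exon, 51 started head to head with a coding gene within 2000 bases, 50 lay across the span of a coding gene, 26 lay within 5000 bases after a same-strand coding gene and 180 were in none of these positions. Exons of 71 overlapped those of another gene, so that reads there may belong to either. The members just inside the threshold were AF250324.1, UBAC2-AS1 and LINC02178, with mean FPKM of 1.0047, 1.0031 and 1.0004, and the lincRNAs just outside were AC010618.3, AL592211.1 and AC007220.1, at 0.9999, 0.9984 and 0.9947.

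The members took a larger share of reads in the A20-KO-labelled libraries than in WT, and a larger share again in A20-OE. The share of reads was 0.257%, 0.255% and 0.238% in WT, 0.319%, 0.328% and 0.327% in the A20-KO-labelled libraries, and 0.372%, 0.378% and 0.355% in A20-OE. In bulk samples, fewer cells with a transcript and less of it per cell cannot be told apart. The groups did not overlap, and the ratio of means was 1.30 for A20-KO against WT, 1.13 for A20-OE against A20-KO and 1.47 for A20-OE against WT. The exact two-sided permutation test gave p = 0.1 in each, the smallest that 3 libraries against 3 can give, and 0.1 after adjustment over the 3 comparisons. Members were chosen by their mean over these same libraries, and 202 of the 307 had a mean FPKM of at least 1 in each group. Of 17 members with such a mean in 1 group only, 9 had it in A20-OE, 5 in A20-KO and 3 in WT. The shares carry this selection, and its part in their order was not tested. Without NEAT1, the member with the most reads, the ratios were 1.21, 1.24 and 1.5. The number of lincRNA genes at an FPKM of at least 1 moved the same way, from 259 to 265 per library in WT to 311 to 341 and 356 to 364. The share of mitochondrial reads was 7.52% to 10.1%, 9.18% to 11.9% and 11.97% to 13.95% in the same order, and that of antisense genes 0.246% to 0.263%, 0.272% to 0.278% and 0.286% to 0.321%; their part in the result was not tested. Counted over non-mitochondrial reads, the members' ratios were 1.32, 1.16 and 1.54.

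**Figure D1:**
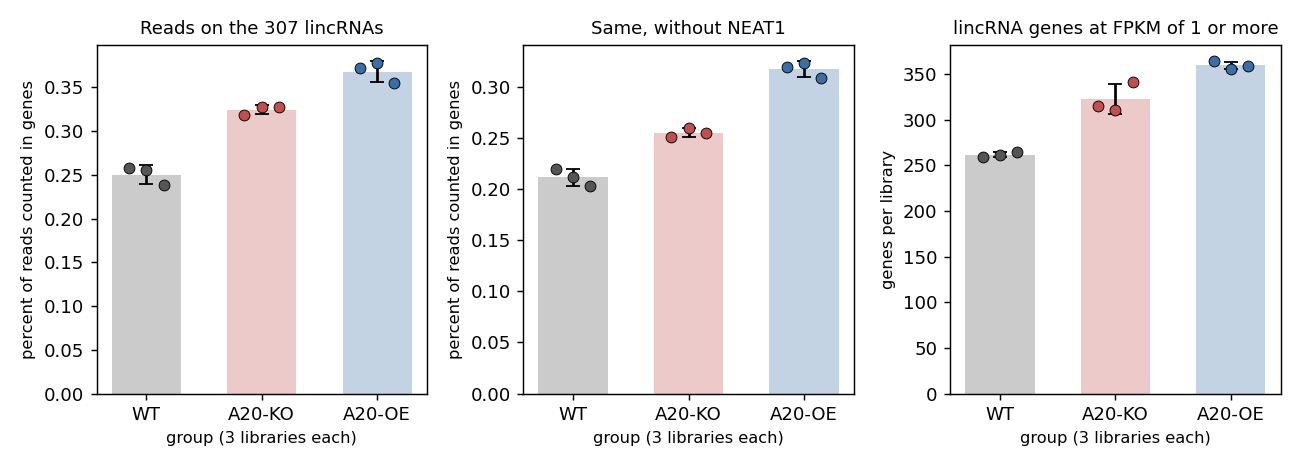
Percent of recovered reads on the 307 lincRNAs (left), the same without NEAT1 (middle) and number of lincRNA genes at an FPKM of at least 1 (right) in each library; points are libraries, bars are means of 3 and error bars are SD. The 3 groups do not overlap in any panel, and A20-OE is highest in all 3. The members in the left and middle panels were chosen by their mean over these same libraries.

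To call a difference, limma was fitted to log2(FPKM + 0.1) over all 21636 genes whose mean FPKM reached 0.1. A call needed an adjusted p under 0.05 together with a log2 fold change beyond 1 in either direction. In the A20-KO-labelled libraries against WT, 43 members were called higher and 3 lower, where 4.91% of all genes tested were called higher and 2.08% lower. In A20-OE against A20-KO, 16 were higher and 5 lower, against 1.56% and 0.832% of all genes. In A20-OE against WT, 70 were higher and 12 lower, against 7.68% and 4.21% of all genes. As shares of the 307 members, the calls were 14.0% higher and 0.977% lower, 5.21% and 1.63%, and 22.8% and 3.91%. In all, 102 members were called in at least 1 comparison. The 3 comparisons share libraries and are not independent.

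The median log2 fold change of the members was 0.34, 0.10 and 0.45 in the 3 comparisons, whereas that of the 10974 protein-coding genes at the same mean level was -0.06, -0.04 and -0.08. Antisense genes chosen at the same level, 381 in number, had medians of 0.17, 0.12 and 0.31. A member that reaches the mean through 1 group has to differ between groups: 202 members had a mean of at least 1 in each group, 88 in 2 groups and 17 in 1. Among the 202, the median was 0.21, 0.09 and 0.38, with 19 higher and 3 lower, 9 and 1, and 31 and 6. The members' libraries did not overlap between groups for 135, 113 and 166 genes (44.0%, 36.8% and 54.1%), beside 38.1%, 35.4% and 45.3% of all genes tested.

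**Figure D2:**
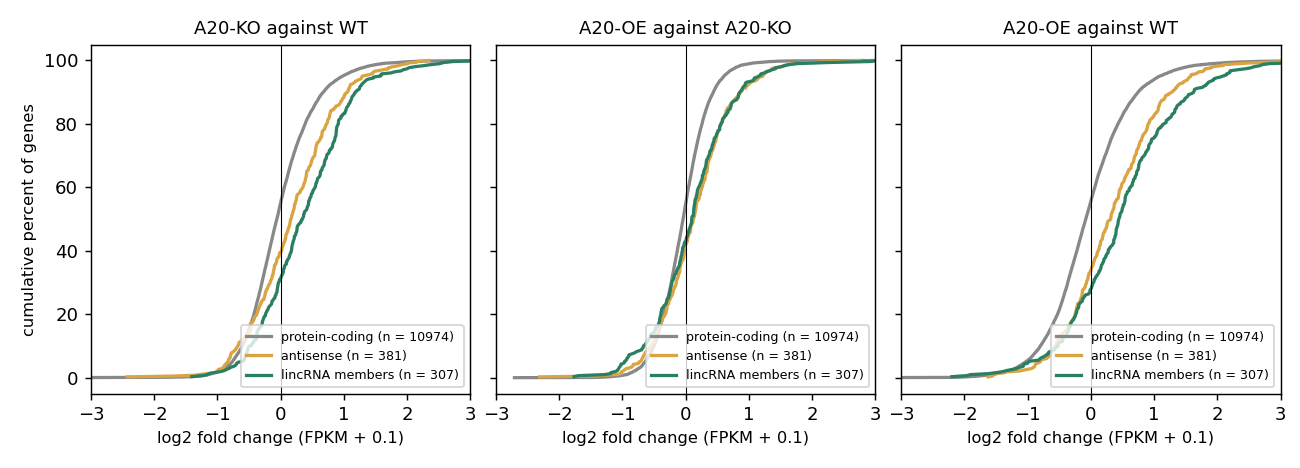
Cumulative percent of genes against log2 fold change of FPKM + 0.1 for the members (green), antisense genes (yellow) and protein-coding genes (grey), all chosen at a mean FPKM of 1 or more, in the 3 comparisons. At their midpoints the green curves lie to the right of the grey ones, with medians of 0.34 against -0.06, 0.10 against -0.04 and 0.45 against -0.08.

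Calls were also counted by the structure of the genes. In A20-OE against WT, 57 of 215 members with several exons were called higher and 5 lower, with a median log2 fold change of 0.53, while 13 of 92 single-exon members were higher and 7 lower, with a median of 0.18. Members of at least 1000 bases had 32 higher and 6 lower of 151, and shorter ones 38 and 6 of 156. Among the 71 members with exonic overlap, 13 were higher and 4 lower, and among the 236 without it 57 and 8. Of all genes tested, 7.68% were called higher and 4.21% lower in this comparison. In A20-KO against WT, members of at least 1000 bases had 16 higher and 2 lower, and shorter ones 27 and 1. These counts were not tested against each other.

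The lincRNAs of nuclear bodies and chromosome architecture differed in their order over the groups. MALAT1, a speckle RNA (11:65497688-65506516, plus strand), had FPKM of 22.9, 23.7 and 23.7 in WT, 39.6, 48.7 and 44.9 in the A20-KO-labelled libraries and 57.5, 61.3 and 58.9 in A20-OE. All 3 groups were apart, and MALAT1 was called higher in A20-OE than in WT (log2 fold change 1.34, SE 0.09, limma adjusted p = 2.4e-05), while the steps of 0.92 and 0.42 stayed under the fold threshold. NEAT1, the scaffold of paraspeckles (11:65422774-65445540, plus strand), had FPKM of 15.8, 17.9 and 15.3 in WT, 28.5, 28.5 and 32.5 in the A20-KO-labelled libraries and 22.9, 23.0 and 21.5 in A20-OE. NEAT1 was thus highest in the A20-KO-labelled libraries, 0.87 above WT and 0.41 above A20-OE on the log2 scale, with limma adjusted p of 0.00056 and 0.035 and no call. NORAD, a mainly cytoplasmic RNA that binds Pumilio proteins and is known for guarding chromosome number (20:36045622-36050960, minus strand, 1 exon), had FPKM of 55.5, 54.0 and 46.6, then 51.4, 53.5 and 37.4, then 87.7, 94.6 and 79.2. WT and the A20-KO-labelled libraries overlapped, and A20-OE lay above both, by 0.89 over A20-KO (limma adjusted p = 0.01) without reaching the fold threshold. Much of NEAT1 and MALAT1 lacks a poly(A) tail, so poly(A)-selected libraries sample them incompletely. Of the 3 members of that list, limma called 0 in A20-KO against WT and 0 in A20-OE against A20-KO, as did limma-voom on recovered reads. The unadjusted p was under 0.05 for 2 higher in the first, and for 2 higher and 1 lower in the second. In these comparisons 14.0% and 5.21% of the 307 members were called higher, and 4.91% and 1.56% of all genes tested.

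The most abundant member, AC105460.1 (4:103550927-103559127, minus strand, 4 exons), has a clone-based name. Its FPKM was 70.8, 54.8 and 49.4 in WT, 121, 123 and 149 in the A20-KO-labelled libraries, and 188, 199 and 211 in A20-OE. No library of one group reached into another, and the gene was called higher in A20-KO against WT (log2 fold change 1.18, SE 0.15, limma adjusted p = 0.00097) and in A20-OE against WT (1.79, SE 0.15, limma adjusted p = 5.1e-05). Exons of AC105460.2 on the opposite strand cover 6.02% of it.

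UCA1, first described in bladder carcinoma and often high in colorectal tumours, followed the same order. Its FPKM was 19.8, 20.01 and 21.7 in WT, 37.2, 37.0 and 39.0 in the A20-KO-labelled libraries and 60.4, 60.6 and 65.4 in A20-OE, with group means of 20.49 ± 1.06, 37.7 ± 1.08 and 62.1 ± 2.83 (SD, n = 3). The groups were far apart relative to their spread, and UCA1 was called higher in A20-OE than in WT (log2 fold change 1.59, SE 0.08, limma adjusted p = 5.9e-06), with steps of 0.88 and 0.72 under the fold threshold. LINC01764 overlaps 11.8% of its exonic bases on the opposite strand. BLACAT1, another RNA named for bladder cancer, had log2 differences of 0.77, 0.08 and 0.84 and no call. PVT1, the neighbour of MYC, had FPKM of 5.46 to 10.1 over the 9 libraries and no call. AC015813.1, another of the 10 highest members, had FPKM of 15.3 to 21.0 and no call. Of the 5 members on the list of MYC-linked and colorectal cancer lincRNAs, 0 were called in A20-KO against WT and in A20-OE against A20-KO. In A20-OE against WT, 2 (MALAT1 and UCA1) were higher, beside 22.8% of the 307 members and 7.68% of all genes tested. The unadjusted p was under 0.05 for 4 of the 5 in A20-KO against WT, all higher, and for 2 higher and 1 lower in A20-OE against A20-KO, and limma-voom also called 0 in both.

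Among the 6 microRNA hosts, limma and limma-voom each called 0 in A20-KO against WT. Each called 2 higher in A20-OE against A20-KO and 2 higher in A20-OE against WT. In these last comparisons 5.21% and 22.8% of the 307 members were called higher, and 1.56% and 7.68% of all genes tested. None was called lower, nor had an unadjusted p under 0.05 in that direction (0 in each comparison), and in A20-KO against WT 1 had one as higher. MIR210HG, host of the hypoxia-linked miR-210 (11:565660-568457, minus strand), had FPKM of 2.55, 3.19 and 2.77 in WT, 5.69, 4.56 and 6.69 in the A20-KO-labelled libraries and 10.9, 9.60 and 12.04 in A20-OE. The groups were apart at each step, with log2 differences of 0.96 and 0.94 just under the fold threshold and 1.90 in A20-OE against WT (SE 0.16, limma adjusted p = 5.3e-05). MIR22HG, host of miR-22 (17:1711493-1717174, minus strand), had FPKM of 1.56, 1.25 and 1.19 in WT, 1.03, 0.926 and 1.45 in the A20-KO-labelled libraries and 3.07, 2.56 and 2.91 in A20-OE. Only A20-OE stood apart, called higher than A20-KO by 1.27 (SE 0.19, limma adjusted p = 0.0063) and than WT by 1.04 (limma adjusted p = 0.0028). Both calls were lost with a pseudocount of 1. The second was also lost with scaling to total recovered reads and without WT replicate 3 or A20-OE replicate 1. MIR222HG, host of miR-221 and miR-222 (X:45745211-45770274, minus strand), had FPKM of 4.44, 3.13 and 2.77, then 1.99, 2.498 and 3.44, then 6.62, 5.60 and 6.55. It was called higher in A20-OE than in A20-KO (1.24, SE 0.22, limma adjusted p = 0.013); without A20-KO replicate 1 or A20-OE replicate 1 that call was lost, and the highest adjusted p over its alternatives was 0.0667. MIR200CHG, with FPKM of 0.691 to 1.94, and MIR4713HG, with 0.285 to 1.76, overlapped between all groups.

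Of 307 members, 92 were matched by symbol to a RefSeq start site (GRCh38.p14). The promoter of MIR210HG, 250 bases before to 50 bases after that start (11:568408-568707, minus strand), is shown because that host was called higher in A20-OE against WT. Capitals mark matches to ACGTG or GCGTG on either strand, the letters in the core recognised by hypoxia-inducible factors.
MIR210HG promoter: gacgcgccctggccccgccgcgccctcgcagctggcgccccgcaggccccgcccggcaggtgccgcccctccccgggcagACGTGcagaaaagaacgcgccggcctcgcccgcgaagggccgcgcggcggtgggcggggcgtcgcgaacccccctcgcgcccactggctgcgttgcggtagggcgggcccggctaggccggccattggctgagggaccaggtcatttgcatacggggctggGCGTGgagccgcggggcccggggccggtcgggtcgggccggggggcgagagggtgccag
It held 2 matches. At least 1 match stood in 48.4% of all 35116 promoters of that length and in 62% of the 92 members' promoters. Among these were 15 of 23 called higher in A20-OE against WT and 40 of 66 not called there. In A20-KO against WT they were 11 of 16 and 45 of 75. In A20-OE against A20-KO the order was the other way, with 1 of 6 called higher and 55 of 84 not called. A match of these letters is a description of the sequence and no evidence of binding.

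The list of hypoxia and stress lincRNAs held 9 members, which include MALAT1, UCA1, MIR210HG and MIR22HG from above. Like the other role lists, it was chosen with earlier results of these data known. Of the 10 lincRNA genes on it, 9 are members. Its counts are therefore a description and no outside support. In A20-OE against WT, 5 of the 9 were called higher and 0 lower by limma and by limma-voom, with 0 at an unadjusted p under 0.05 as lower and a median log2 fold change of 1.05. Of all 307 members 22.8% were called higher there, and of all genes tested 7.68%; whether the list stands apart from the other members was not tested. The fifth was LINC01405, with FPKM of 1.83, 2.29 and 1.97 in WT and 3.99, 4.58 and 5.12 in A20-OE (log2 fold change 1.13, SE 0.19, limma adjusted p = 0.0019). Its call was lost with a pseudocount of 1. In A20-KO against WT limma and limma-voom called 0 of the 9, with an unadjusted p under 0.05 for 5 higher and 1 lower. There 14.0% of the 307 members were called higher, and 4.91% of all genes tested. In A20-OE against A20-KO 1 was called higher and 0 lower, with an unadjusted p under 0.05 for 6 higher and 1 lower. For that comparison 5.21% of the 307 members were called higher, and 1.56% of all genes tested. LINC00847, also on the list, had FPKM of 2.20 to 3.83 in the 9 libraries and no call.

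Hosts of small nucleolar RNAs carry guides for ribosomal RNA modification in their introns. They had 7 members and 1 call, that of SNHG4 as lower in A20-KO against WT. There 0.977% of the 307 members were called lower, and 2.08% of all genes tested. In A20-OE against A20-KO and against WT, limma and limma-voom called 0, with an unadjusted p under 0.05 for 3 and 2, all higher. SNHG4 (5:139274102-139284899, plus strand) had FPKM of 15.6, 12.4 and 11.4 in WT, 6.13, 6.56 and 6.18 in the A20-KO-labelled libraries and 11.7, 11.4 and 10.9 in A20-OE. It fell in the A20-KO-labelled libraries, below every other library, by 1.04 on the log2 scale (SE 0.12, limma adjusted p = 0.00064), and was 0.84 higher in A20-OE than in A20-KO, under the fold threshold. The call was lost with a pseudocount of 1 and without WT replicate 1, and MATR3 shares 14.0% of its exonic bases on the same strand. SNHG15 was also lowest in the A20-KO-labelled libraries, with log2 differences of -0.42 and 0.47 and no call. SNHG8, the highest of the hosts, had FPKM of 32.2, 32.7 and 32.5 in WT and 43.0, 42.2 and 54.5 in the A20-KO-labelled libraries (log2 difference 0.51, limma adjusted p = 0.021). SNHG9 and SNHG25 were read at 54 reads or fewer in any library.

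Such host genes often start with a C and a run of pyrimidines, the 5′ terminal oligopyrimidine motif known from ribosomal protein genes. The first 30 bases from the RefSeq start (GRCh38.p14) are shown for the 4 hosts matched, with the leading run that opens with C in capitals.
SNHG4 (5:139274101-139274130, plus strand): CCCTTTCCCCTCCggcctctgccggtgctg
SNHG19 (16:2155329-2155358, minus strand): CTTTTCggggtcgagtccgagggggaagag
SNHG8 (4:118278762-118278791, plus strand): Cacattcgggaagcgtcgggattaggtgaa
EPB41L4A-AS1 (5:112160526-112160555, plus strand): tgtcgggtcccaaaatacgtggtctaaagt
A run of at least 5 stood at SNHG4, with 13 bases, and SNHG19, with 6, and at 4.07% of all promoters. The 2 hosts differed in the data: SNHG4 fell in the A20-KO-labelled libraries, whereas SNHG19 had log2 differences of 0.49, -0.17 and 0.32 without a call.

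PURPL, a p53-induced RNA, was called higher in A20-OE. Its FPKM was 2.09, 0.804 and 0.849 in WT, 1.14, 1.08 and 1.37 in the A20-KO-labelled libraries and 2.97, 3.93 and 3.22 in A20-OE. A20-OE lay above all other libraries, by 1.42 over A20-KO (SE 0.31, limma adjusted p = 0.028) and 1.48 over WT (limma adjusted p = 0.0066). The first of these calls was lost in 9 of 19 alternatives, each library of those groups left out among them, with adjusted p up to 0.119. On the list of 4 p53-linked members, NEAT1, NORAD and PVT1 were the others, none of them called by limma or limma-voom.

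**Figure D3:**
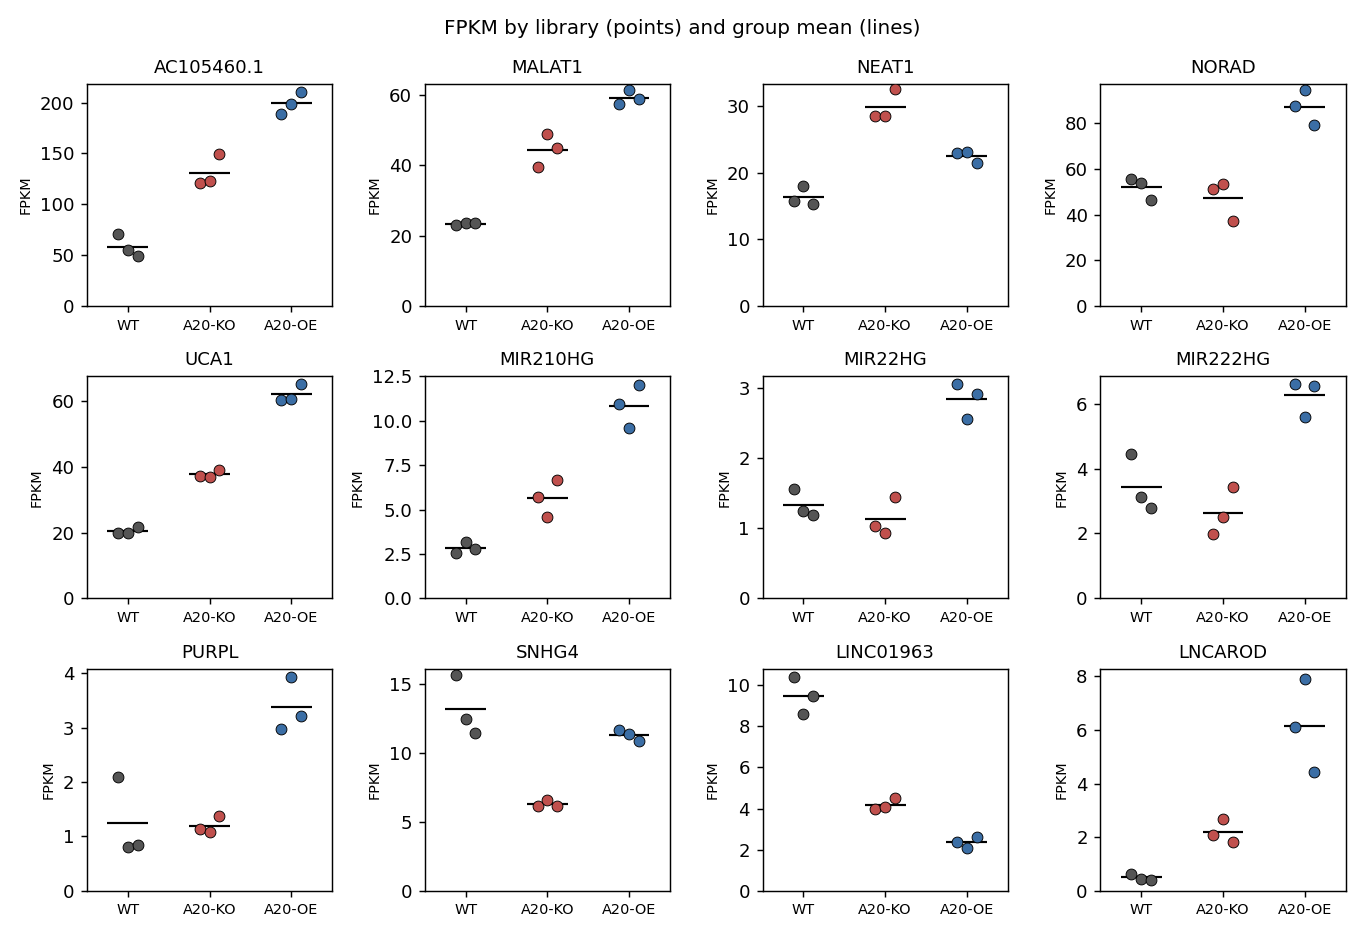
FPKM in each library (points) and group mean (lines) for 12 members. AC105460.1, MALAT1, UCA1, MIR210HG and LNCAROD have group means that increase from WT to A20-KO to A20-OE, NEAT1 is highest and SNHG4 lowest in the A20-KO-labelled libraries, and LINC01963 decreases.

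The largest rises in the A20-KO-labelled libraries against WT were of little-studied genes at low levels. LINC01219 (11:1991096-1993670, plus strand), a neighbour of MRPL23, had FPKM of 0.175, 0 and 0.0433 in WT, 1.47, 1.23 and 1.53 in the A20-KO-labelled libraries and 1.30, 2.05 and 1.37 in A20-OE. It was called higher against WT in both, by 3.26 (SE 0.35, limma adjusted p = 0.00053) and 3.38, values that depend on the pseudocount because WT held few reads. LINC01219 passed the member threshold only through the A20-KO-labelled and A20-OE libraries, so a rise against WT was built into its selection. LINC02593 (1:916865-921016, minus strand) had FPKM of 0.951, 1.09 and 0.934 in WT, 6.31, 5.75 and 7.22 in the A20-KO-labelled libraries and 5.09, 3.80 and 5.44 in A20-OE, a rise of 2.58 (SE 0.16, limma adjusted p = 4.8e-05). Its nearest coding gene, SAMD11, 2912 bases away, was also called higher, by 3.56.

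The other rises among the 12 largest in this comparison were AL606491.1 (2.73), AC026367.3 (2.52), LINC02356 (2.38), LINC01703 (2.26), AC087491.1 (2.12), AC147067.1 (2.0), LNCAROD (1.94), LINC01730 (1.91), AP001362.2 (1.8) and AL512274.1 (1.75). AP001362.2, now named RELA-DT, runs from the start region of RELA, which encodes the NF-kB subunit p65, and had FPKM of 1.32, 1.36 and 1.16 in WT against 3.79, 4.69 and 5.88 in the A20-KO-labelled libraries. RELA itself had a log2 difference of 0.20 there (limma adjusted p = 0.34) and no call. AC026367.3 and LINC01703 held as few as 1 read in a library, and their calls were lost in 6 and 3 of 19 alternatives, most of them leaving out 1 library, with adjusted p up to 0.0755 and 0.0655. FLJ20021, within the span of PPP3CA, rose from 12.7, 14.8 and 17.1 to 26.1, 32.03 and 35.7, by 1.07 (SE 0.16, limma adjusted p = 0.0022), which was a call lost without WT replicate 1 or A20-KO replicate 3.

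Besides SNHG4, 2 members fell in this comparison. LINC01963 (2:216217045-216220192, plus strand, 1 exon) had FPKM of 10.4, 8.57 and 9.48 in WT, 3.99, 4.06 and 4.52 in the A20-KO-labelled libraries and 2.38, 2.06 and 2.63 in A20-OE. It fell by 1.16 (SE 0.12, limma adjusted p = 0.00049), and by 1.97 in A20-OE against WT, with no overlap at either step. AC084018.1, whose exons overlap those of RHOF on the opposite strand over 36.7%, fell by 1.24. RHOF itself was 0.66 higher in the A20-KO-labelled libraries (limma adjusted p = 0.049), without a call. The count of 3 falls was 2 without WT replicate 1 and 5 without WT replicate 2.

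In A20-OE against A20-KO, the largest rises were LIVAR (3.08), LINC02178 (2.91), LINC01186 (2.24), FAM160A1-DT (1.76), PICART1 (1.63), AC008440.3 (1.56), AC254633.1 (1.5), LNCAROD (1.42), PURPL, LINC01615 (1.36), MIR22HG and MIR222HG. PICART1 (17:50050349-50055739, minus strand), head to head with the integrin gene ITGA3, had FPKM of 1.25, 1.27 and 0.898 in the A20-KO-labelled libraries and 4.07, 4.66 and 2.68 in A20-OE, after 0.445, 0.569 and 0.442 in WT. LNCAROD, known from head and neck carcinoma, had FPKM of 0.622, 0.459 and 0.418 in WT, 2.09, 2.70 and 1.82 in the A20-KO-labelled libraries and 6.10, 7.91 and 4.45 in A20-OE. Both were called higher at each step, and in A20-OE against WT by 2.71 and 3.36 (limma adjusted p = 6e-05 and 2.5e-05). The LNCAROD call against A20-KO was lost without A20-OE replicate 1 (adjusted p up to 0.0546).

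LIVAR and LINC02178 rested on few reads. LIVAR had FPKM of 1.5, 0.106 and 0.894 in the A20-KO-labelled libraries and 7.13, 5.35 and 4.87 in A20-OE, with 1 read in its lowest library. LINC02178 had 0 reads in 1 library. Its group means were 0.378 in WT, 0.296 in the A20-KO-labelled libraries and 2.33 in A20-OE. It passed the member threshold only through A20-OE, so a rise there was built into its selection. Calls of LIVAR, LINC02178, FAM160A1-DT and AC008440.3 were each lost in 5 or more of 19 alternatives.

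The 5 members called lower in A20-OE than in A20-KO were AP001505.1, AC019069.1, AC144836.1, C10orf91 and AC027020.2. AP001505.1 fell from 8.27, 8.82 and 11.04 to 2.90, 2.55 and 2.55, by 1.77 (SE 0.33, limma adjusted p = 0.015). AC019069.1, now HK2-DT, starts opposite the hexokinase gene HK2 and fell from 1.23, 1.22 and 1.35 to 0.321, 0.393 and 0.751. HK2 itself went the other way, by 0.99 (limma adjusted p = 0.0028), without a call. Each of the 5 calls was lost in 5 to 14 of 19 alternatives. The count of 21 calls in this comparison was 6 without A20-OE replicate 1, 8 without A20-KO replicate 1, 12 without A20-KO replicate 3 and 11 without A20-OE replicate 2 or 3.

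**Figure D4:**
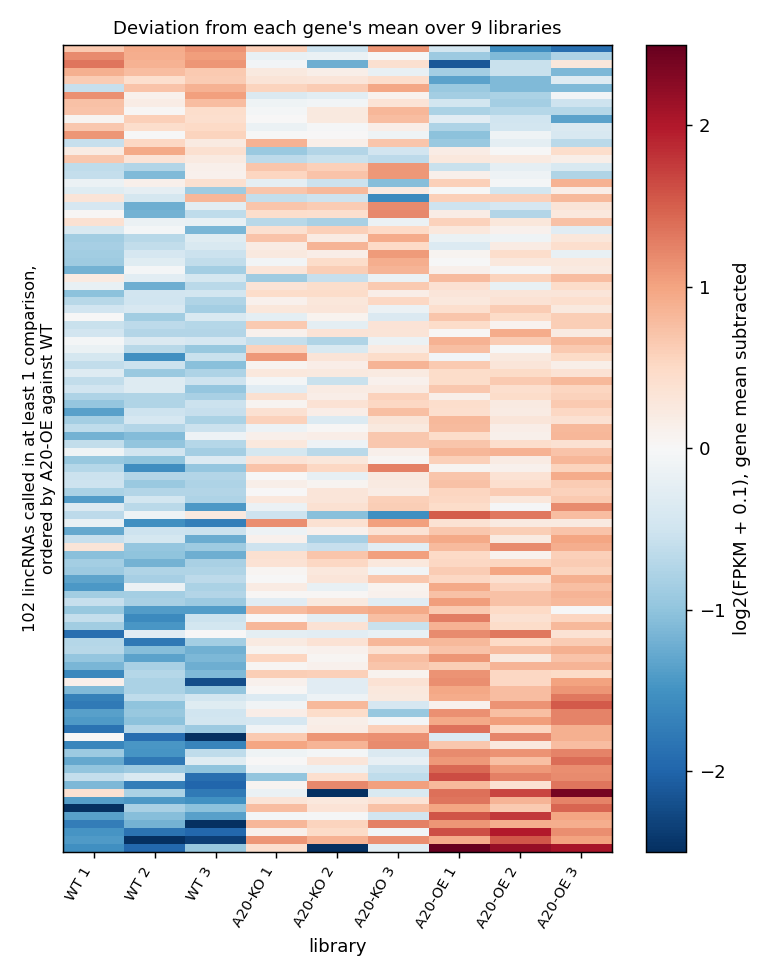
Deviation of log2(FPKM + 0.1) from each gene's mean over 9 libraries for the 102 members called in at least 1 comparison, ordered by the difference of A20-OE from WT; red is above and blue below the mean. The 70 genes called higher in A20-OE than in WT fill most of the lower part, blue in WT and red in A20-OE, and the 12 called lower stand near the top with the colours turned round.

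In A20-OE against WT the named rises above 2 on the log2 scale were led by LIVAR (3.76), LINC01219 and LNCAROD. AC254633.1, a single-exon gene near DHRS3, had FPKM of 3.62, 3.83 and 3.59 in WT, 6.68, 6.60 and 4.97 in the A20-KO-labelled libraries and 19.96, 15.7 and 16.5 in A20-OE (2.20, SE 0.14, limma adjusted p = 1.4e-05). AC092306.1, a single-exon gene after CBLC, was called higher by 1.01, a call lost in 5 of 19 alternatives: a pseudocount of 1, scaling to total recovered reads, limma-voom, and leaving out WT replicate 3 or A20-OE replicate 2. The falls were AC025176.1 (-2.20), LINC01963, AL035461.2 (-1.90), AP003392.4 (-1.61), AC019069.1 (-1.48), AP001505.1 (-1.38), AC145207.5 (-1.33), AC108174.1 (-1.17), AC027020.2 (-1.13), LINC00342 (-1.07), AL355338.1 (-1.07) and AC018645.2 (-1.06). The calls of AL035461.2, LINC00342 and AC018645.2 were lost in 9, 7 and 6 of 19 alternatives, with adjusted p up to 0.099, 0.0919 and 0.0864; that of AL035461.2 was lost on leaving out each of the 3 WT libraries in turn, A20-KO replicate 1 or A20-OE replicate 1 or 2, that of LINC00342 without WT replicate 2 or 3 or A20-OE replicate 2 or 3, and that of AC018645.2 without WT replicate 1 or 3 or A20-OE replicate 1 or 3. AC027020.2 lost its call without WT replicate 1 and AL355338.1 without A20-OE replicate 1. AL355338.1 (now PCCA-DT) and AP003392.4 (now CENATAC-DT) start head to head with PCCA and CCDC84. AC145207.5 and AL035461.2 had a nearest coding gene that was also called lower, ALYREF, which fell by 1.78, and MCM8, which fell by 1.35.

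The nearest coding gene of a called member was itself called in part of the cases. In A20-KO against WT, 4 of 43 members called higher had a nearest coding gene called higher, by limma and by limma-voom. By either method 0 had one called lower. The neighbour's unadjusted p was under 0.05 for 16 as higher and 5 as lower. The 4 of 43 are 9.30%, beside 16 of 261 members not called (6.13%). In A20-OE against WT the count was 9 of 70 (12.9%), beside 11 of 225 members not called (4.89%). A nearest coding gene called lower stood by 2 of 12 members called lower (16.7%), 1 of them AL035461.2, and by 10 of 225 not called (4.44%). These shares were not tested against each other. They count neighbours too low to be tested: 6 of 43 and 30 of 261 in A20-KO against WT, and 10 of 70 and 26 of 225 in A20-OE against WT. SAMD11 counted there for both LINC02593 and AL645608.6. Of protein-coding genes with mean FPKM of at least 1, 4.65% and 5.96% were called higher in these comparisons, and 1.905% and 5.41% lower. In A20-OE against A20-KO the neighbour shared the call for 0 of 16 and 0 of 5 by limma and limma-voom. The unadjusted p was under 0.05 in the same direction for 3 and 0. Across the 270 members with a tested neighbour, Spearman's rho between the log2 fold changes of a member and its neighbour was 0.32, 0.16 and 0.27 in the 3 comparisons, a description over genes that share libraries.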

How the data were processed

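RNA of 9 HCT116 libraries was poly(A) selected and sequenced as paired ends by the study. Submitters' processing notes name HISAT2 2.0.5 and featureCounts 1.5.0-p3, and the authors deposited FPKM per gene with gene lengths; whether counting used strand is not given in the sources used here. Whole reads were recovered from the FPKM steps (100% of values whole within 0.05 read). Identifiers and coordinates matched GENCODE 29. One limma 3.58.1 fit (R 4.3.3, variance trend) over 3 groups used log2(FPKM + 0.1) of the 21636 genes with mean FPKM of at least 0.1, with Benjamini-Hochberg adjustment over all of them, and was tested on simulated data. Fold changes on this scale understate those of low genes. Shares of reads were compared by exact two-sided permutation tests (scipy 1.17.1). Members, role lists and tests were chosen with earlier results of these data known. Named were TNFAIP3, the 10 highest members, up to 12 largest called rises and falls per comparison, role list members, the 3 genes on each side of the threshold, and nearest coding genes of called members. The list of structured housekeeping RNAs had 0 members, and that of NF-kB and interferon lincRNAs held MIR22HG and NEAT1. Alternatives changed the pseudocount, filter, scaling, groups fitted, variance trend, test, fold threshold, member threshold, replicate block and libraries. One sequence is not reported here.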

Additional observations from a re-analysis of the deposited data

How the results depend on the processing

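The member counts, 46, 21 and 82 calls in A20-KO against WT, A20-OE against A20-KO and A20-OE against WT, depended on the pseudocount, the fold threshold and the member threshold. With a pseudocount of 1 they were 19 (18 higher, 1 lower), 9 (8 and 1) and 42 (37 and 5). Above an absolute log2 fold change of 2 they were 8 (8 and 0), 3 (3 and 0) and 18 (17 and 1). With members at a mean FPKM of at least 0.5 they were 88, 36 and 150, at 2 they were 23, 10 and 39, and with a mean of 1 in each group 22, 10 and 37. Without a filter on low values A20-OE against A20-KO had 13 calls, 2 of them lower. Its 5 lower calls were 8 by limma-voom on recovered reads and by scaling to total reads, and 3 without a variance trend. Over all genes, limma-voom called 1253 higher and 518 lower, 371 and 262, and 1746 and 1185. Leaving out 1 library, calls ranged from 35 to 50, 6 to 25 and 68 to 82, with 32 to 47 higher and 2 to 5 lower, 6 to 18 and 0 to 7, and 58 to 72 and 9 to 14. The ratio of read shares kept its direction without NEAT1.

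Same-numbered libraries had correlations of deviations from -0.12 to 0.33, and not every library correlated best with its own number, so the numbers were not taken to pair the libraries. With a replicate block the calls were 47, 20 and 83.

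Of the named genes, none changed sign in a comparison where it was called. Values not called that changed sign, some of them of genes called in another comparison, such as PURPL, ranged as follows with libraries left out. In A20-KO against WT, LINC00847 ranged from -0.13 to 0.039, LINC02178 from -0.89 to 0.44, MIR200CHG from -0.17 to 0.52, NORAD from -0.24 to 0.017, PURPL from -0.16 to 0.48, PVT1 from -0.084 to 0.23 and SNHG9 from -0.28 to 0.69. In A20-OE against A20-KO, BLACAT1 ranged from -0.048 to 0.21, FLJ20021 from -0.0021 to 0.23, MIR200CHG from -0.17 to 0.29, MIR4713HG from -0.45 to 0.078, SNHG19 from -0.35 to 0.027 and SNHG8 from -0.013 to 0.18. In A20-OE against WT, MIR200CHG ranged from -0.14 to 0.55, SNHG15 from -0.0013 to 0.10, SNHG25 from -0.87 to 0.78, SNHG9 from -0.58 to 0.39, and AC010618.3, just outside the member threshold, from -0.21 to 0.17. By scaling to total reads and by limma-voom, MIR200CHG had -0.016 and -0.020 in A20-OE against A20-KO, and in A20-OE against WT SNHG15 had -0.011 and -0.012 and SNHG9 -0.0067 and -0.0069. With a pseudocount of 1, SNHG9 had -0.0078 and SNHG25 -0.082. The causes were not tested. A median of 56.8 reads per member and library limits what low members can show.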
